A study of Mus musculus with 10 samples.

Results

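One array of myeloid progenitors immortalized by MLL-ENL was compared, gene by gene, with 3 arrays of progenitors immortalized by HoxA9, which are 4 of the 10 arrays in the series. The arrays were chosen by their titles alone. MLL-ENL cells have 1 array with no clone number, and HoxA9 cells have clones 1, 2 and 3. Both are primary mouse marrow progenitors derived in medium with Stem Cell Factor and no GM-CSF, and no animal, strain or age is given. Each introduced gene immortalized its own cells, so there is no culture without an oncogene. The other 6 arrays are 3 clones immortalized by NUP98-NSD1 and 3 by HoxA9 together with Meis1, derived in the same medium. They enter the estimate of the spread, and their values are given beside named genes. RNA was measured on a 1-colour oligonucleotide array, and each value is a linear signal for 1 probe set, a group of short probes that read 1 transcript. Nothing says that the clones came from separate animals, so p-values measure only the spread between these arrays.

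MLL, encoded by Kmt2a, is a histone H3 lysine 4 methyltransferase that keeps Hox genes active in blood stem cells and progenitors. In MLL-ENL its amino-terminal end is joined to ENL, encoded by Mllt1, a subunit of the complexes that release paused RNA polymerase II, and the fusion is known for holding Hoxa genes and Meis1 at high levels in acute leukaemia. Hoxa9 is itself a homeobox transcription factor that blocks myeloid maturation, and Meis1 is a homeobox cofactor of the TALE class that binds DNA with it. HoxA9 cells thus carry an introduced copy of a gene that MLL fusions are known to raise.

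Markers of the labelled cell type, a myeloid progenitor, were present. Summed over Kit, Cd34, Mpo, Elane, Spi1 and Cebpa, the signal was 492359 in MLL-ENL cells, against 302868 to 329356 in the HoxA9 clones. Most of the MLL-ENL sum came from the granule genes Mpo (221677) and Elane (198245). Mpo, Elane, Spi1 and Cd34 lay above all HoxA9 clones, and Kit and Cebpa below them, so the markers did not move together. No marker of the 6 was below the filter level in MLL-ENL cells. The arrays themselves differed. The median signal of all probe sets was 440.3 in MLL-ENL cells, against 607.6 to 660.3 in HoxA9 clones, while the brightest probe set read 253754 in MLL-ENL cells and 138637 to 149785 in HoxA9 clones. The 18 probe sets for the hybridization controls, bacterial RNAs added in fixed amounts, averaged 14.01 on the log2 scale in MLL-ENL cells and 13.30 in HoxA9 cells, and all 18 lay above all HoxA9 clones. NUP98-NSD1 arrays share the higher level and HoxA9+Meis1 arrays the lower one, so for MLL-ENL against HoxA9 the level of these controls and the introduced gene cannot be told apart. The ratio of the 3′ to the 5′ probe set of Actb, a sign of RNA integrity, was 1.31 in MLL-ENL cells and 1.13 to 1.17 in HoxA9 clones. In arrays of a whole culture, fewer cells of a type and less RNA per cell cannot be told apart.

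More genes were lower than higher in MLL-ENL cells, and the higher ones were mostly bright. A gene is called higher or lower here when its MLL-ENL value lies outside the range of the 3 HoxA9 clones and limma, fitted on log2(signal + 32) over all 14233 genes measured, gives a Benjamini-Hochberg adjusted p under 0.05. By this rule 813 genes (5.71%) were higher and 1270 (8.92%) lower. The higher genes were 39.0% of all calls, but 78.9% with arrays scaled to a common median and 27.8% with a gene's probe sets averaged. By any amount, 4070 genes (28.6%) lay above all 3 clones and 6582 (46.2%) below them. Without any model, 292 genes (2.05%) lay at least 2-fold above the highest clone and 1633 (11.5%) at least 2-fold below the lowest. With 1 array in the MLL-ENL group, the fit assumes that it varies as the clones of the other groups do. Leaving out clone 1, 2 or 3 gave 656, 569 and 609 higher genes. The lower genes then numbered 861, 773 and 798, so leaving out clone 2 or 3 moved that count by over 1.5-fold. Without clone 3, 443 genes lay at least 2-fold above the others, also over 1.5-fold more.

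Level and direction went together. Among 7166 genes over 2500 in MLL-ENL cells or in the HoxA9 mean, 769 (10.7%) were higher and 557 (7.77%) lower, with a median log2 difference of 0.05. Among the 7067 dimmer genes, 44 (0.623%) were higher and 713 (10.1%) lower, with a median of -0.49. The higher genes had a median signal of 15863 in MLL-ENL cells, 13196 in NUP98-NSD1, 9959 in HoxA9+Meis1 and 8999 in HoxA9 cells. The lower genes had medians of 590.6 in MLL-ENL, 1077 in NUP98-NSD1, 1886 in HoxA9+Meis1 and 1975 in HoxA9 cells. The genes were chosen by the difference of MLL-ENL from HoxA9, so nothing is read from the order of the other groups. Of the lower genes, 526 were under the filter level of 369.3 in MLL-ENL cells, and for those only a bound on the fold is given. The median gene differed by -0.15. Scaling arrays to a common median adds 0.48 to every difference, so that falls nearer to 0 than that change sign, and quantile normalization moves the median gene by 0.11.

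**Figure D1:**
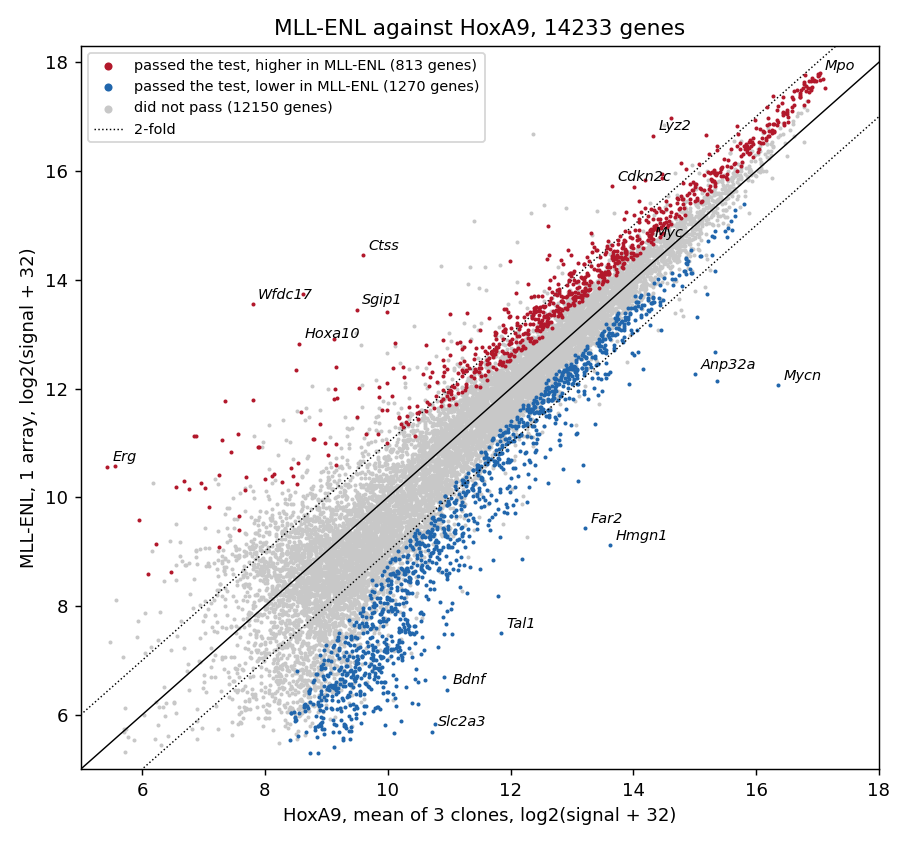
Log2(signal + 32) of each of the 14233 genes in MLL-ENL cells (y axis) against the mean of the 3 HoxA9 clones (x axis), with the 813 higher and 1270 lower genes coloured and dotted lines at 2-fold. The higher genes lie mainly at the bright end and the lower genes spread over the dim end as well.

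The start regions of Hoxa9, Hoxa10, Hoxa7 and Meis1 are shown because these are the best known genes held high by MLL fusions and each has a probe set that separates MLL-ENL from HoxA9 cells. The windows are RefSeq promoters on GRCm38.p6, 250 bases before to 50 after the start, all on the minus strand, with CG dinucleotides in capitals.
Hoxa9, chr6:52227321-52227620: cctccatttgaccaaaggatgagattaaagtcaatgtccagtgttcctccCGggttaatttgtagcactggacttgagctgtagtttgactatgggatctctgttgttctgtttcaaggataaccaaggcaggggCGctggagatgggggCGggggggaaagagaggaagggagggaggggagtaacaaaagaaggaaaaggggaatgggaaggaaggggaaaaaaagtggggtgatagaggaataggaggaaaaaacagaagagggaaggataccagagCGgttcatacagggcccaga
Hoxa10, chr6:52240805-52241104: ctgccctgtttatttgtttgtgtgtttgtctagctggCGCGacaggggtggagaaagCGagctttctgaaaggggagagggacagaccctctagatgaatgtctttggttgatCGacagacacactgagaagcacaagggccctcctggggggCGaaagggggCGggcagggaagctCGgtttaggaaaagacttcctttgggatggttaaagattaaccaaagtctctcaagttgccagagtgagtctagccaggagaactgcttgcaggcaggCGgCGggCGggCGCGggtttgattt
Hoxa7, chr6:52218524-52218823: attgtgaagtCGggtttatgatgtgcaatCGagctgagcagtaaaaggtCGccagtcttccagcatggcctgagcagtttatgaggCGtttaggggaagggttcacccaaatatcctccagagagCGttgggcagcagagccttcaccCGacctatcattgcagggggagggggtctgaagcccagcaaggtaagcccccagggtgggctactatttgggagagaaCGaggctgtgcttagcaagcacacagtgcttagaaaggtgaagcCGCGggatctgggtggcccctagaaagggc
Meis1, chr11:19018920-19019219: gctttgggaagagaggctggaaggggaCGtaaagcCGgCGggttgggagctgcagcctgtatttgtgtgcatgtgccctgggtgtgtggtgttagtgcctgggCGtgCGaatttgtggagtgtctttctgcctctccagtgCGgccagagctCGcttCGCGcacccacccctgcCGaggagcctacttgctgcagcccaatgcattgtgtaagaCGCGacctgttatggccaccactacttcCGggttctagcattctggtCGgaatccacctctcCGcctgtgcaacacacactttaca
They hold 4, 12, 9 and 15 CG dinucleotides in the order printed. At least as many are found in 68.6% of the 32851 mouse promoters for Hoxa9, 39.6% for Hoxa10, 45.8% for Hoxa7 and 34.6% for Meis1. A second RefSeq window for Hoxa10, not printed, holds 21, a count reached by 24.8% of promoters. The motifs TGACAG and TGATNNAT, searched on both strands, had no match in these 5 windows and occur in 19.2% and 8.85% of all promoters.

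Hoxa9 itself read in opposite directions by its probe sets. The probe set 1455626_at had 35209 in MLL-ENL cells, 31804 to 36931 in NUP98-NSD1, 25.7 to 29.3 in HoxA9+Meis1 and 32.4, 50.8 and 25.9 in HoxA9 clones. It was at least 87.8-fold higher in MLL-ENL cells than in HoxA9 cells, with an adjusted p of 7.62e-07 by limma over the 25459 probe sets, of which 5.21% were called higher and 9.08% lower. The other, 1421579_at, had 6478 in MLL-ENL cells, 6783 to 8481 in NUP98-NSD1, 89613 to 103499 in HoxA9+Meis1 and 27259, 43395 and 59375 in HoxA9 clones. By this brighter probe set Hoxa9 fell by 2.67 on the log2 scale (SE 0.32, adjusted p = 0.00139). At both probe sets MLL-ENL lay outside the HoxA9 range, above it at the first and below it at the second. Whether a probe set reads the introduced copy, the chromosomal gene or both was not analysed here.

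Hoxa10 and Hoxa7 were higher in MLL-ENL cells. Hoxa10, the homeobox gene 5′ of Hoxa9, had 7221 in MLL-ENL cells, 4324 to 11545 in NUP98-NSD1, 125 to 396 in HoxA9+Meis1 and 272, 368 and 409 in HoxA9 clones, a rise of 19.2-fold (log2 difference 4.27, SE 0.62, adjusted p = 0.00287). Its second probe set, 1446408_at, differed by -0.021 and did not pass. Hoxa7 had 2096 in MLL-ENL cells, 339 to 1835 in NUP98-NSD1, 117 to 148 in HoxA9+Meis1 and 138, 134 and 106 in HoxA9 clones, at least 5.3-fold higher (adjusted p = 0.0138). All HoxA9 clones were under the filter level of 369.3 for Hoxa7. Hoxa5 depended on the probe set: the dimmer 1448926_at had 1576 in MLL-ENL cells and 444, 247 and 415 in HoxA9 clones (log2 difference 2.04, adjusted p = 0.0411), and the brighter had 3189 in MLL-ENL cells and 5161, 4468 and 5044 in HoxA9 clones (-0.61, adjusted p = 0.192). Of 7 Hox-A genes measured, 2 were higher, Hoxa10 and Hoxa7, and 1 lower, Hoxa9 by its brighter probe set, with a median of 0.11. With probe sets averaged, 3 were higher and 0 lower. Over all genes 5.71% were higher and 8.92% lower.

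Meis1 was high in MLL-ENL cells, and under the filter level in every HoxA9 clone, by 1 of its probe sets. The probe set 1450992_a_at had 10159.6 in MLL-ENL cells, 4214 to 6267 in NUP98-NSD1, 558 to 687 in HoxA9+Meis1 and 16.7, 27.9 and 20.6 in HoxA9 clones. MLL-ENL cells were at least 25.4-fold higher than HoxA9 cells (adjusted p = 4.5e-06), and their value was the highest of all 10 arrays. The HoxA9+Meis1 clones, which carry introduced Meis1, lay between them. The probe set that represents the gene, 1443260_at, had 707 in MLL-ENL cells and 819.5, 961 and 697 in HoxA9 clones and did not pass (log2 difference -0.20, adjusted p = 0.783).

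**Figure D2:**
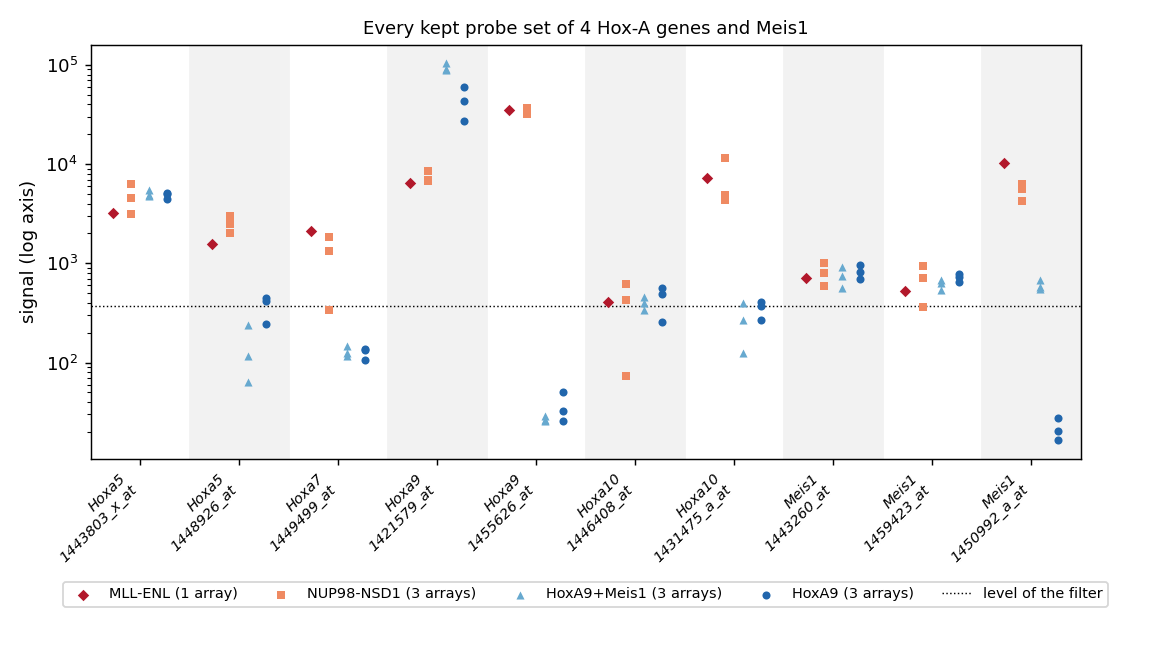
Signal (log axis) of the 10 kept probe sets of Hoxa5, Hoxa7, Hoxa9, Hoxa10 and Meis1 on each array, by group, with the filter level dotted. MLL-ENL lies with the NUP98-NSD1 clones and above the HoxA9 clones at 1 probe set each of Hoxa9, Hoxa10, Hoxa7 and Meis1, and far below the HoxA9 clones at the second Hoxa9 probe set.

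Of 11 Hox genes measured in the B, C and D clusters, 3 were lower, against 8.92% of all genes. The rest did not pass (median -0.76, against -0.15 over all genes). Hoxb2, of the B cluster, had 25.4 in MLL-ENL cells, 4021 to 5318 in NUP98-NSD1, 147 to 728 in HoxA9+Meis1 and 699, 599.9 and 915 in HoxA9 clones, at least 1.89-fold lower (adjusted p = 0.00803). The NUP98-NSD1 clones were the highest for this gene. Hoxd3 had 37.5 in MLL-ENL cells and 265, 536 and 904 in HoxA9 clones (adjusted p = 0.0132). Hoxc6 had 426 in MLL-ENL cells and 2276, 1258 and 1421 in HoxA9 clones, a fall of 3.55-fold (adjusted p = 0.0116). Among 10 TALE cofactors, Pknox1, a partner of Pbx proteins, rose 2-fold to 10535 in MLL-ENL cells, against 5288, 5347 and 5125 in HoxA9 clones (adjusted p = 0.00402), and Tgif2, a repressor of TGF-beta responses, fell 3.11-fold to 697 in MLL-ENL cells, against 3154, 2045 and 1732 in HoxA9 clones (adjusted p = 0.0161). So 1 of the 10 was higher and 1 lower, against 5.71% and 8.92% of all genes. Meis1 counts here as not passed, by the probe set that represents it. With an offset of 100, a filter at the 60th percentile or probe sets averaged, 2 of these cofactors were higher. The median of the 10 was -0.12, and 0.05 after quantile normalization, where the fall of Tgif2 did not pass. Pbx3, which binds DNA with Hoxa9 and Meis1, had 1332 in MLL-ENL cells and 1809, 2333 and 2444 in HoxA9 clones and did not pass (adjusted p = 0.22).

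Neither parent gene of the fusion passed the test at the deposited scaling. Kmt2a had 4655 in MLL-ENL cells, 4519.6 to 6253 in NUP98-NSD1, 3303 to 3789 in HoxA9+Meis1 and 3290.0, 3602 and 3295 in HoxA9 clones (log2 difference 0.45, SE 0.20, adjusted p = 0.156). It lay above all 3 HoxA9 clones and inside the range of the NUP98-NSD1 clones. With arrays scaled to a common median its log2 difference was 0.93 and passed. Mllt1 had 1804 in MLL-ENL cells and 2220.0, 3035 and 3864 in HoxA9 clones (-0.71, SE 0.31, adjusted p = 0.154), and neither gene's probe sets were tested for reading the introduced fusion. Of 27 genes for MLL, ENL and elongation complexes, 3 were higher (median 0.04), against 5.71% of all genes. The count was 2 after quantile normalization and 5 with a common median. Ccnt1, the cyclin of the elongation factor P-TEFb, rose 1.69-fold to 8319 in MLL-ENL cells, against 5041, 4780.0 and 4878 in HoxA9 clones (adjusted p = 0.00398). Ctr9, a subunit of the PAF complex that binds MLL, rose 2.13-fold to 10819.5 in MLL-ENL cells, against 4610.3, 5869 and 4774 in HoxA9 clones (adjusted p = 0.0356). Ell2, an elongation factor that binds ENL complexes, passed at 0.014 but was under the filter level on all 4 arrays. Some calls were lost when 1 clone was left out, with an adjusted p of, without HoxA9 clone 1, 0.0726 for Ctr9, and, without HoxA9 clone 3, 0.0746 for Ctr9.

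Of 19 genes reported as bound or raised by MLL fusions, 5 were higher, against 5.71% of all genes, and 14 did not pass (median 0.15). Mef2c, a transcription factor of myeloid leukaemia and lymphoid priming, had 18591 in MLL-ENL cells, 10498 to 10619 in NUP98-NSD1, 21466 to 26564 in HoxA9+Meis1 and 10346, 11160.4 and 11635 in HoxA9 clones. It rose 1.68-fold over HoxA9 cells (log2 difference 0.75, SE 0.13, adjusted p = 0.00553), with all 5 of its probe sets called higher. Lmo2, a bridging cofactor of stem cell transcription factors, had 58089.9 in MLL-ENL cells and 18574, 18765 and 18689.7 in HoxA9 clones, a rise of 3.11-fold (adjusted p = 0.000267). Zeb2, a zinc finger repressor, rose 2.96-fold to 29867 in MLL-ENL cells, against 12106, 9678 and 8728 in HoxA9 clones (adjusted p = 0.00419). Mbnl1, a splicing regulator, had 148941 in MLL-ENL cells and 69353, 72108 and 80214 in HoxA9 clones (adjusted p = 0.00343), and 0.50 after quantile normalization (adjusted p = 0.0899). Other genes known from MLL-fusion leukaemia did not pass at the deposited scaling. Myb had 65419 in MLL-ENL cells and 72308, 71441 and 68439.8 in HoxA9 clones. After quantile normalization its log2 difference was -0.50 and passed. Cdk6 had 66839.9 in MLL-ENL cells and 60854, 61252 and 59244 in HoxA9 clones. Myc had 26324 in MLL-ENL cells and 24484, 18587 and 16491 in HoxA9 clones, above all clones but with an adjusted p of 0.216. With a common median the log2 difference of Myc was 0.90 and passed. Of 19 H3K36 and polycomb writer genes, 1 was higher and 2 lower, near the 5.71% and 8.92% of all genes, and with a common median 5 were higher and none of the falls passed. Ezh2, the H3 lysine 27 methyltransferase, rose 1.47-fold (adjusted p = 0.00923), and Phc2 and Cbx2, subunits of the other polycomb complex, fell 1.86-fold and 2.66-fold (adjusted p = 0.00343 and 0.0325). Phc2 was 0.24 on the log2 scale with suffixed probe sets left out. Leaving out 1 clone ended some of these calls, with an adjusted p of, without HoxA9 clone 1, 0.0685 for Cbx2, and, without HoxA9 clone 2, 0.0746 for Cbx2.

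The 15 largest rises, among genes with no probe set called the other way, ran from 5.74 down to 3.64 on the log2 scale. Wfdc17, a secreted protein of macrophages with an antiprotease fold, had 11927 in MLL-ENL cells, 5029 to 8689 in NUP98-NSD1, 11484 to 20285 in HoxA9+Meis1 and 74.9, 163 and 499 in HoxA9 clones, a rise of 53.6-fold (log2 difference 5.74, SE 0.69, adjusted p = 0.00139). Erg, an Ets factor of blood stem cells, had 1478 in MLL-ENL cells, 7079 to 8139 in NUP98-NSD1, 5730.1 to 7252 in HoxA9+Meis1 and 13.6, 10.9 and 8.61 in HoxA9 clones, at least 3.76-fold higher (adjusted p = 1.72e-05). For Erg, MLL-ENL lay below every NUP98-NSD1 and HoxA9+Meis1 clone. S100a4, a calcium-binding protein of migrating cells, had 13640.0 in MLL-ENL cells and 106, 562 and 721 in HoxA9 clones (34.6-fold, adjusted p = 0.00649). Gpr171, an orphan receptor, had 1486 in MLL-ENL cells and 5.77, 31.8 and 12.2 in HoxA9 clones, at least 3.78-fold higher (adjusted p = 0.00173). Ctss, the lysosomal protease cathepsin S, had 22329 in MLL-ENL cells and 373, 1007 and 1062 in HoxA9 clones (29-fold, adjusted p = 0.000576). For Ctss the NUP98-NSD1 clones read 17077 to 19389.6 and the HoxA9+Meis1 clones 14288 to 21811, so the HoxA9 clones alone were low.

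Pirb, an inhibitory immunoglobulin-like receptor, had 3460.1 in MLL-ENL cells and 43.2, 76.6 and 509 in HoxA9 clones (adjusted p = 0.0106), with clone 3 the highest. Cd9, a tetraspanin, had 2199 in MLL-ENL cells and 105, 108 and 46.8 in HoxA9 clones, at least 5.56-fold higher (adjusted p = 0.0313). Ltb4r1, the leukotriene B4 receptor, had 2214 in MLL-ENL cells and 23.9, 39.9 and 379 in HoxA9 clones (adjusted p = 0.0194), and reached 5528 to 16264 in NUP98-NSD1 clones. Cd302, a C-type lectin receptor, Sgip1, an endocytic adaptor, E330020D12Rik, 9630013D21Rik and Slc15a3, a lysosomal peptide transporter, complete the set with Hoxa10 and Hoxa7. Sgip1 had 11154 in MLL-ENL cells, 254 to 905 in NUP98-NSD1, 277 to 1033 in HoxA9+Meis1 and 625, 729 and 725 in HoxA9 clones, with both probe sets called higher (adjusted p = 0.0068). With 1 clone left out, calls were lost at an adjusted p of, without HoxA9 clone 1, 0.0542 for Cd302 and 0.0634 for Slc15a3, and, without HoxA9 clone 2, 0.0544 for Cd9, 0.0639 for 9630013D21Rik and 0.0614 for Slc15a3, and, without HoxA9 clone 3, 0.0676 for Cd9, 0.0557 for Cd302, 0.063 for 9630013D21Rik and 0.0767 for Slc15a3. Leaving out 1 clone moved some folds by over 1.5 times, and the log2 difference was then, without HoxA9 clone 1, 4.35 for S100a4 and 3.19 for Cd302, and, without HoxA9 clone 2, 4.51 for E330020D12Rik, and, without HoxA9 clone 3, 6.37 for Wfdc17, 5.27 for Pirb and 5.15 for Ltb4r1.

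**Figure D3:**
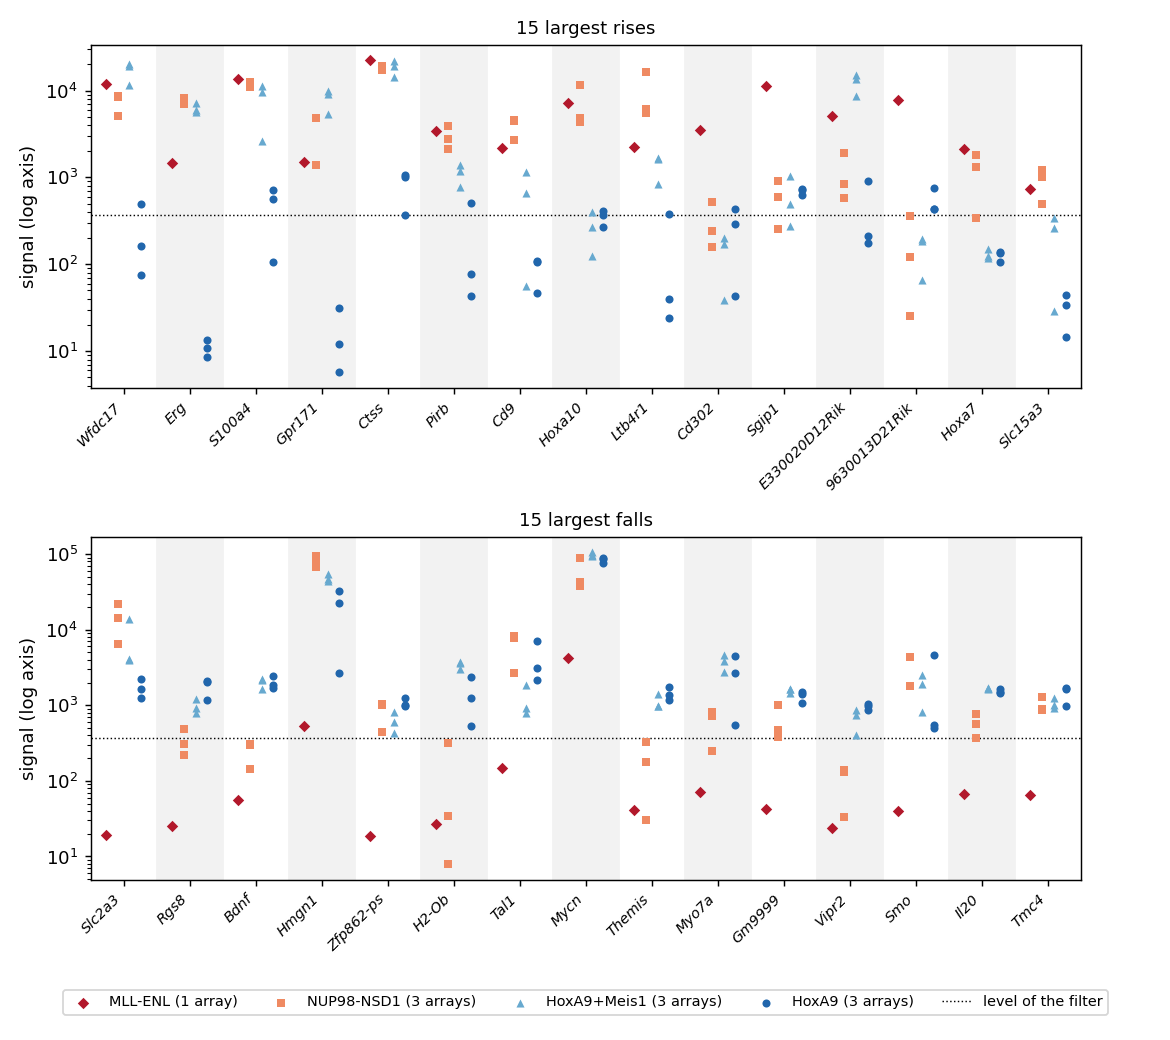
Signal (log axis) of the 15 genes with the largest rise and the 15 with the largest fall, on each of the 10 arrays by group. By the rule for a call, all 3 HoxA9 clones lie below MLL-ENL for the rises and above it for the falls. They spread widely for some genes such as Hmgn1 and Smo. The NUP98-NSD1 and HoxA9+Meis1 clones lie above, between or below by gene.

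Of the 15 largest falls, all but Mycn and Hmgn1 were under the filter level in MLL-ENL cells. Slc2a3, a glucose transporter, had 19.5 in MLL-ENL cells, 6393 to 22039 in NUP98-NSD1, 3999 to 13728 in HoxA9+Meis1 and 1239, 1627 and 2260.4 in HoxA9 clones, at least 4.21-fold lower (adjusted p = 0.00298). Only 1 of its 4 probe sets passed. Mycn, the MYC paralog, had 4258 in MLL-ENL cells, 37727 to 89551 in NUP98-NSD1, 95420.1 to 106123 in HoxA9+Meis1 and 77101, 88199 and 87084 in HoxA9 clones, 19.6-fold lower (log2 difference -4.29, SE 0.36, adjusted p = 0.000307). Its MLL-ENL value was far below all 9 other arrays, and its second, dim probe set did not pass. Tal1, a basic helix-loop-helix factor of stem cells and erythroid cells, had 149.5 in MLL-ENL cells, 2678 to 8207 in NUP98-NSD1, 793 to 1836 in HoxA9+Meis1 and 7134, 2149 and 3109 in HoxA9 clones, at least 9.12-fold lower (adjusted p = 0.0054). Hmgn1, a nucleosome-binding protein, had 525 in MLL-ENL cells, 67873 to 93608 in NUP98-NSD1 and 32426, 2683 and 22808 in HoxA9 clones (adjusted p = 0.0167), and clone 2 was far below the other clones. All 3 Hmgn1 probe sets were called lower.

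Rgs8, a regulator of G-protein signalling, had 25.1 in MLL-ENL cells and 2107, 1191 and 2017 in HoxA9 clones, at least 4.36-fold lower (adjusted p = 0.000923). Bdnf, a neurotrophin, had 56.2 in MLL-ENL cells and 1865, 1707 and 2428 in HoxA9 clones (at least 5.01-fold, adjusted p = 0.000719). Il20, a cytokine of the IL-10 family, had 67.5 in MLL-ENL cells and 1619, 1520.3 and 1438 in HoxA9 clones (at least 3.88-fold, adjusted p = 0.000675). Smo, the Hedgehog signal transducer, had 39.8 in MLL-ENL cells and 4601, 506 and 541 in HoxA9 clones (adjusted p = 0.0375), with clone 1 far above the others. H2-Ob, the beta chain of a modulator of MHC class II loading, Themis, a T-cell selection protein, Myo7a, an unconventional myosin, Vipr2, a neuropeptide receptor, Tmc4, Gm9999 and Zfp862-ps were the other members, with log2 differences of -4.34 to -3.88. Not every call held with 1 clone left out, and the adjusted p was then, without HoxA9 clone 2, 0.0554 for H2-Ob, and, without HoxA9 clone 3, 0.0595 for H2-Ob. Leaving out 1 clone moved some folds by over 1.5 times, and the log2 difference was then, without HoxA9 clone 1, -3.82 for Hmgn1, -2.95 for Smo and -5.08 for Myo7a, and, without HoxA9 clone 2, -5.61 for Hmgn1 and -3.61 for Myo7a. Among bright genes that fell, chosen after their values were seen, was Anp32a, a histone-binding acidic protein. Anp32a had 4883 in MLL-ENL cells, 6665 to 6868 in NUP98-NSD1, 27436 to 28821 in HoxA9+Meis1 and 33231, 32311 and 32918 in HoxA9 clones (adjusted p = 5.74e-07 by limma). The hybridization controls split the groups the same way, and their part in this result was not tested.

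Of 18 primary granule genes measured, 7 were higher and 11 did not pass (median 0.54); after quantile normalization 2 were higher and 1 lower, with a median of -0.03. Over all genes 5.71% were higher. Lyz2, lysozyme, had 103012 in MLL-ENL cells, 73579 to 159107 in NUP98-NSD1, 4341 to 16726 in HoxA9+Meis1 and 15566, 21185 and 25932 in HoxA9 clones, 5.03-fold higher (adjusted p = 0.0335). Mpo, myeloperoxidase, had 221677 in MLL-ENL cells and 132165, 142660.0 and 126200.0 in HoxA9 clones, 1.66-fold higher (adjusted p = 0.00361). Ctsg, cathepsin G, had 211001 in MLL-ENL cells and 142899, 145083 and 131251 in HoxA9 clones (adjusted p = 0.021). Ctsc, which activates granule proteases, had 25512 in MLL-ENL cells and 13502, 11648 and 13302 in HoxA9 clones (1.99-fold, adjusted p = 0.00162). Mpo and Ctsg lie near the top of the signal range, where the MLL-ENL array read up to 253754. After quantile normalization Mpo differed by 0.01 and Ctsg by -0.15. Lyz2 then differed by 2.06 on the log2 scale and did not pass. Nkg7, a granule membrane protein, had 508 in MLL-ENL cells, 15346 to 27145 in NUP98-NSD1 and 127, 112 and 124 in HoxA9 clones, at least 1.35-fold higher (adjusted p = 0.0168). Of 19 secondary granule genes, 1 was higher and 1 lower, near the 5.71% and 8.92% of all genes, and the lower one was lost with a common median and after quantile normalization. Mmp8, neutrophil collagenase, had 4034 in MLL-ENL cells and 377, 482 and 831 in HoxA9 clones (adjusted p = 0.0182). Mmp9, gelatinase B, had 87.4 in MLL-ENL cells and 849, 885 and 793 in HoxA9 clones (adjusted p = 0.0419). Some calls were lost when 1 clone was left out, with an adjusted p of, without HoxA9 clone 1, 0.0696 for Lyz2 and 0.0754 for Mmp9, and, without HoxA9 clone 2, 0.0639 for Lyz2 and 0.085 for Mmp9, and, without HoxA9 clone 3, 0.0517 for Ctsg and 0.0757 for Mmp9.

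Of 19 monocyte and macrophage genes measured, 6 were higher and 1 lower (median 0.77), against 5.71% and 8.92% of all genes. After quantile normalization 4 were higher, and with a common median 10. Besides Ctss, Maf, a monocyte transcription factor, had 2259 in MLL-ENL cells, 1584 to 2986 in NUP98-NSD1, 90.6 to 155 in HoxA9+Meis1 and 145, 122 and 216 in HoxA9 clones, at least 5.71-fold higher (adjusted p = 0.00319). Adgre1, which encodes the macrophage marker F4/80, had 6286 in MLL-ENL cells and 1096, 2766 and 2749.7 in HoxA9 clones (adjusted p = 0.0447). After quantile normalization the log2 difference of Adgre1 was 1.63 and did not pass. Cd68, a lysosomal marker of macrophages, had 8066 in MLL-ENL cells and 3045, 2729 and 4729.5 in HoxA9 clones (adjusted p = 0.0237). Ccr2, the receptor that brings monocytes to tissue, had 76090.4 in MLL-ENL cells and 44210.3, 47178 and 45267 in HoxA9 clones (adjusted p = 0.00843), which was 0.117 after quantile normalization. Lying above all 3 HoxA9 clones is part of the rule for a call, so it adds nothing for these 4. Fcgr1, a high-affinity Fc receptor, was the 1 that fell, with 331 in MLL-ENL cells and 1082, 995 and 924 in HoxA9 clones (adjusted p = 0.0193). It did not pass after quantile normalization or with a common median. The summed signal of Csf1r, Adgre1, Cd68 and Ctss was 74908 in MLL-ENL cells, 41398 to 46705 in NUP98-NSD1, 34815 to 67970 in HoxA9+Meis1 and 13168 to 26486 in HoxA9 clones, and none of the 4 was below the filter level in MLL-ENL cells. The sum of 6 secondary granule markers was 14503 in MLL-ENL cells and 14462 to 72841 in HoxA9 clones, with 3 below the filter level in MLL-ENL cells. That of 6 mast cell, basophil and eosinophil markers was 2698 in MLL-ENL cells and 4799 to 9579 in HoxA9 clones, with 3 below the filter level. Most of the HoxA9 sums came from Mcpt8, with 914 in MLL-ENL cells and 8167, 4196 and 2854 in HoxA9 clones. Cpa3 was also below all HoxA9 clones, Hdc lay inside their range, and Fcer1a, Epx and Prg2 lay above them, so the markers did not move together. The sums were 2510 in MLL-ENL cells against 2007 to 3466 in HoxA9 clones for dendritic cell markers, 2163 in MLL-ENL cells against 1277 to 2273 in HoxA9 clones for B-cell markers, and 1396 in MLL-ENL cells against 2300 to 2789 in HoxA9 clones for stromal markers. Their part in these results was not tested. Leaving out 1 clone ended some of these calls, with an adjusted p of, without HoxA9 clone 1, 0.0506 for Cd68, and, without HoxA9 clone 2, 0.0539 for Cd68.

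Of 33 myeloid transcription factors measured, 4 were higher and 2 lower, against 5.71% and 8.92% of all genes, and with a common median 12 were higher and the 2 falls did not pass. Fos, an immediate early AP-1 subunit, had 7545 in MLL-ENL cells and 3303, 1213 and 1624 in HoxA9 clones (3.98-fold higher, adjusted p = 0.0123). Klf2, a factor of quiescent cells, had 4729.8 in MLL-ENL cells and 876, 1147 and 1725 in HoxA9 clones (adjusted p = 0.00522). Ikzf1, Ikaros, had 22369 in MLL-ENL cells and 13288, 12384 and 13500.5 in HoxA9 clones (adjusted p = 0.00156). Fli1, an Ets factor, and Zfpm1, a GATA cofactor, were lower at adjusted p = 0.0441 and 0.0339. Fli1 turned to 0.071 when arrays were scaled to a common median. Spi1, the master factor PU.1, had 26254 in MLL-ENL cells and 19546, 19102 and 19514 in HoxA9 clones and did not pass (adjusted p = 0.15). Cebpa, another granulocyte factor, did not pass either, with 29219 in MLL-ENL cells and 33176, 33526 and 33905 in HoxA9 clones. Of 21 stem and progenitor genes, 2 were higher, Erg and Lmo2, and 3 lower, Tal1, Mycn and Msi2 (median -0.79), against the same shares of all genes. Cd34, a surface marker of progenitors, had 2723 in MLL-ENL cells, 12432 to 32329.9 in NUP98-NSD1, 48216 to 50766 in HoxA9+Meis1 and 97.8, 93.9 and 1845 in HoxA9 clones. It lay above all HoxA9 clones but did not pass (adjusted p = 0.112), with clone 3 far above the other clones. Without clone 3 the log2 difference was 4.43 and passed (adjusted p = 0.00174), and it also passed with a common median (adjusted p = 0.0459). Kit had 14242 in MLL-ENL cells and 18944, 17607 and 14446 in HoxA9 clones. Flt3 had 709 in MLL-ENL cells and 1047, 702 and 1429.9 in HoxA9 clones. Gata2 had 901 in MLL-ENL cells and 1369, 1401 and 1469 in HoxA9 clones, and none of these 3 passed. With 1 clone left out, calls were lost at an adjusted p of, without HoxA9 clone 1, 0.0683 for Fli1 and 0.0615 for Zfpm1, and, without HoxA9 clone 2, 0.0675 for Fli1 and 0.0768 for Zfpm1, and, without HoxA9 clone 3, 0.0952 for Fli1 and 0.0524 for Zfpm1.

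Of 36 integrins, tetraspanins and adhesion genes, 6 were higher and 3 lower, against 5.71% and 8.92% of all genes, and with a common median 10 were higher and 1 lower. Cd93, a C-type lectin of progenitors and monocytes, had 32431 in MLL-ENL cells, 41254 to 46315 in NUP98-NSD1, 52164 to 59990.2 in HoxA9+Meis1 and 5586, 5807 and 7487 in HoxA9 clones, 5.18-fold higher (log2 difference 2.37, SE 0.16, adjusted p = 9.98e-05). Itga1 had 1322 in MLL-ENL cells and 128, 148 and 90 in HoxA9 clones (adjusted p = 0.0163). Itga2, which like it binds collagen, had 44.6 in MLL-ENL cells and 384, 585 and 752 in HoxA9 clones (adjusted p = 0.0116). Both lay outside the HoxA9 range, as the rule for a call requires, and Itga2 was under the filter level in MLL-ENL cells. Among 29 cytokine and growth factor receptors, 3 were higher and 1 lower, against the same shares of all genes, and 8 were higher with a common median. Il6st, the shared gp130 chain, Tnfrsf1b, a TNF receptor, and Il10rb were higher and Epor lower. Il10rb had 26840.1 in MLL-ENL cells and 13922, 13383 and 10008 in HoxA9 clones (adjusted p = 0.00735). Il6st had 13794 in MLL-ENL cells and 4619, 4163 and 4248 in HoxA9 clones (adjusted p = 0.019). Not every call held with 1 clone left out, and the adjusted p was then, without HoxA9 clone 1, 0.062 for Tnfrsf1b and 0.0952 for Epor, and, without HoxA9 clone 2, 0.0688 for Tnfrsf1b and 0.0594 for Epor, and, without HoxA9 clone 3, 0.108 for Epor.

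Inhibitors of cyclin-dependent kinases were among the rises. Of 18 such inhibitors, D cyclins and kinases, 3 were higher and 1 lower, against 5.71% and 8.92% of all genes. With a common median 5 were higher, and the 1 fall, Cdk2, did not pass. Cdkn2c, the CDK4 and CDK6 inhibitor p18, had 54106 in MLL-ENL cells, 4337 to 6939 in NUP98-NSD1, 9038 to 10715 in HoxA9+Meis1 and 10480.1, 17013 and 11694 in HoxA9 clones, 4.23-fold higher (log2 difference 2.08, SE 0.29, adjusted p = 0.00228). Its MLL-ENL value lay above all other 9 arrays. Cdkn1a, p21, had 7319.7 in MLL-ENL cells and 2999, 2438 and 1474 in HoxA9 clones (adjusted p = 0.00989). Cdkn1b, p27, had 8409 in MLL-ENL cells and 3593, 4339.6 and 3525 in HoxA9 clones (adjusted p = 0.0036). Cdk2, the kinase of S-phase entry, fell 1.71-fold to 10399 in MLL-ENL cells, against 18015, 17383 and 18011 in HoxA9 clones (adjusted p = 0.00186). Of 24 replication and mitosis genes, 5 were higher and 1 lower, against the same shares of all genes. After quantile normalization 1 was higher and 2 lower, and with a common median 9 were higher. All 5 rises were lost without the intensity trend, with the MLL-ENL and HoxA9 arrays fitted alone, and without the HoxA9+Meis1 arrays. Without clone 1 or clone 3 only 2 were higher and 1 lower. Rrm2, a ribonucleotide reductase subunit, fell 1.68-fold (adjusted p = 0.0058), and Mki67, the proliferation marker, rose 1.5-fold (adjusted p = 0.0343), with 0.108 after quantile normalization. Some calls were lost when 1 clone was left out, with an adjusted p of, without HoxA9 clone 1, 0.0636 for Mki67, and, without HoxA9 clone 3, 0.0538 for Mki67.

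Bcl2 family genes gave 4 higher and 1 lower of 14, against 5.71% and 8.92% of all genes. Mcl1, an antiapoptotic member, had 44621 in MLL-ENL cells and 21516, 24616 and 25067 in HoxA9 clones (adjusted p = 0.00138), with all 6 probe sets higher. The proapoptotic Bak1, Bbc3 and Bcl2l11 were higher too, and Hrk, also proapoptotic, fell to 269 in MLL-ENL cells, against 1021, 1618 and 1363 in HoxA9 clones, at least 3.35-fold (adjusted p = 0.0133). Of 17 ribosomal protein genes, 12 were higher (median 0.60), against the same 5.71% of all genes. But after quantile normalization 1 was lower and 16 did not pass, with a median of -0.00. Rpl22 had 182268 in MLL-ENL cells, 169625 to 182675 in NUP98-NSD1, 102723 to 113828 in HoxA9+Meis1 and 101873, 106067 and 93212 in HoxA9 clones, and the hybridization controls likewise read high in MLL-ENL and NUP98-NSD1 cells. Their part in this result was not tested. Leaving out 1 clone ended some of these calls, with an adjusted p of, without HoxA9 clone 2, 0.0646 for Bcl2l11, and, without HoxA9 clone 3, 0.0615 for Bcl2l11.

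**Figure D4:**
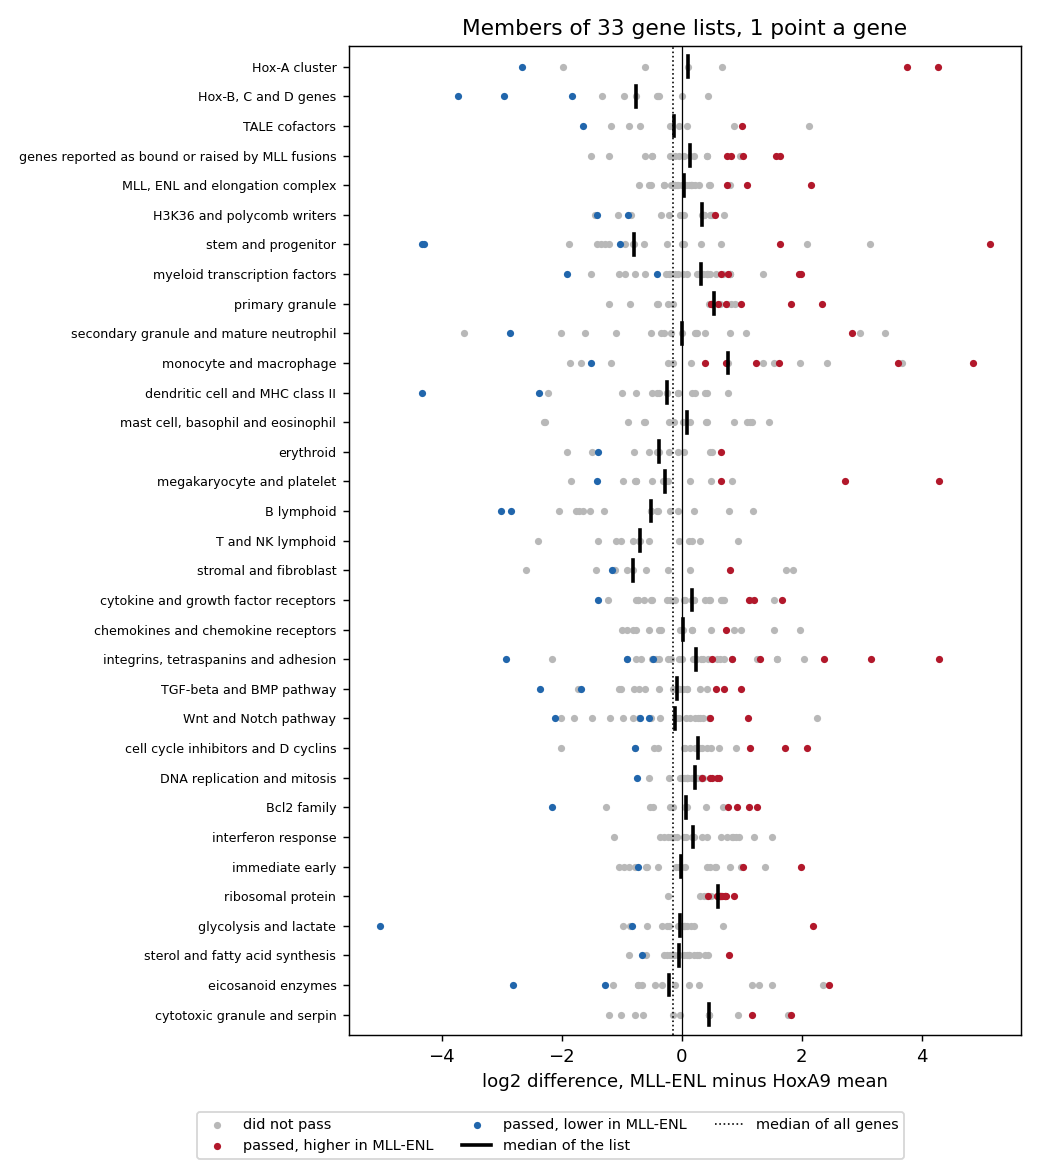
Log2 difference of MLL-ENL minus HoxA9 for each measured gene of the 33 lists (1 point a gene), with the list's median as a bar and the median of all genes, -0.15, dotted. Ribosomal protein, monocyte and primary granule lists lie to the right and the Hox-B, C and D, stem, stromal and T and NK lists to the left, and most lists straddle the dotted line.

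MLL-ENL cells also stood apart from all 9 other arrays in places. Called genes above all 9 numbered 454 (3.19% of 14233), and those below all 9 numbered 889 (6.25%). Of the 813 genes called higher, 13 lay at least 2-fold above all 9, and of the 1270 called lower, 285 lay at least 2-fold below all 9. The MLL-ENL array also had the lowest median signal of all arrays, 440.3, and the part of this in the counts was not tested. Beside Sgip1, 9630013D21Rik, Cd302 and Cdkn2c, those furthest above included Abcg2, a drug efflux transporter, with 3569 in MLL-ENL cells, 274 to 515 in NUP98-NSD1, 204 to 380.1 in HoxA9+Meis1 and 406, 322 and 1074 in HoxA9 clones (adjusted p = 0.0263). Ap1s2, a clathrin adaptor subunit, had 21328 in MLL-ENL cells and 5689, 6048 and 6731 in HoxA9 clones (adjusted p = 0.0015). Pros1, protein S, had 1996 in MLL-ENL cells and 378, 605 and 683 in HoxA9 clones (adjusted p = 0.033). Tsc22d2 had 11321 in MLL-ENL cells and 3413, 4031 and 3883 in HoxA9 clones (adjusted p = 0.00157). These genes were chosen for lying furthest above all 9 other arrays, so the lack of overlap follows from the choice. Furthest below, Clip3, a microtubule-linked trafficking protein, had 38.1 in MLL-ENL cells and 773, 808 and 538 in HoxA9 clones. Synm, an intermediate filament protein, had 37.5 in MLL-ENL cells and 987, 649 and 984 in HoxA9 clones. Fgfrl1, an FGF receptor without a kinase domain, had 60.4 in MLL-ENL cells and 1388, 1194 and 778 in HoxA9 clones. These 3 were at least 1.81-, 2.22- and 2.79-fold lower (adjusted p = 0.0016, 0.00156 and 0.00105). With 1 clone left out, calls were lost at an adjusted p of, without HoxA9 clone 1, 0.0579 for Abcg2 and 0.0716 for Pros1, and, without HoxA9 clone 2, 0.0607 for Abcg2 and 0.0614 for Pros1.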

How the data were processed

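The values used here are a deposited table of linear signal intensity, 1 value for each of 45101 probe sets and array. Each array's 2% trimmed mean is close to 2500, from which scaling to a common mean was inferred; the software is not given in the sources used here. Groups came from array titles. Log2(signal + 32) was taken, and a probe set with 1 gene symbol was kept if 3 or more of the 10 arrays exceeded 369.3, which is the 40th percentile of the table (25459 kept). The brightest represents its gene (14233 genes, 6413 with several). Symbols come from the platform annotation. limma 3.58.1 in R 4.3.3 fitted 4 group means with an intensity trend and 6 residual degrees of freedom, two-sided, with Benjamini-Hochberg adjustment over all genes, and was tested on simulated data. A fold is taken on signal plus 32. Where every array of the dimmer side is under 369.3, "at least" sets the brighter side against that level. The number of arrays limits the precision.

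The rule named, each way, the 15 largest differences without an opposite probe set, up to 5 called members of each of 33 gene lists, the 8 genes furthest outside all 9 other arrays, 20 fixed genes, and members of described lists. The members and lists were chosen with earlier results of these data known. Alternatives changed the scaling, offset, filter, probe set rule, trend, arrays in the fit and clones. Promoter sequences are from RefSeq, GRCm38.p6. Figures used Python 3.11.15 and matplotlib 3.10.9.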

Additional observations from a re-analysis of the deposited data

How the results depend on the processing

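The count of higher genes was 499 after quantile normalization, 1851 with arrays scaled to a common median, 442 with the probe sets of a gene averaged, 1327 with every probe set counted alone and 460 without the intensity trend. The count of lower genes was 821 after quantile normalization, 494 with a common median, 2312 with every probe set alone, 735 without the HoxA9+Meis1 arrays and 2085 without the NUP98-NSD1 arrays. Genes at least 2-fold above all HoxA9 clones numbered 1030 with a common median, 528 without a filter and 555 over probe sets. Those at least 2-fold below numbered 988 after quantile normalization, 919 with a common median, 776 with a filter at the 60th percentile and 2907 over probe sets. Leaving out 1 HoxA9 clone gave 569 to 656 higher and 773 to 861 lower genes, and 393 to 443 and 1847 to 1980 at least 2-fold outside. Of the 2083 calls, 58.2% were kept after quantile normalization, 62.7% with a common median and 60.1% with averaged probe sets. Some genes changed sign. Ctsg was -0.15 after quantile normalization. With a common median Fli1 was 0.071 and Itgav 0.0058. Meis1 was 6.40 with an offset of 100 and 7.57 with a filter at the 60th percentile, where another probe set represented it. With probe sets averaged, Meis1 was 2.32, Hoxa9 3.18, Fli1 0.029, Notch2 -0.83, Tgfb1 -0.16, Rps20 -0.067 and Cdc20 -0.013. With suffixed probe sets left out, Hoxa10 was -0.021, Hoxa5 2.04, Slc2a3 0.57, Itga5 -0.79, Rps20 -0.36, Cdc20 -0.26, Phc2 0.24 and Ptgds 0.024. Averaging and leaving out probe sets change which probes stand for a gene, and for the other settings the cause was not tested. Of 132 called genes named by the rule, 42 kept their call under every alternative. The 1 MLL-ENL array limits precision throughout, and signals under 369.3 give only a bound. No paired analysis was possible because the MLL-ENL array carries no clone number and the 2 groups share fewer than 2 numbers.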

Other observations

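Of 21 TGF-beta and BMP genes, 3 were higher and 2 lower, against 5.71% and 8.92% of all genes. The 2 falls did not pass after quantile normalization or with a common median. Tgfbr2, the type II TGF-beta receptor, had 6881 in MLL-ENL cells and 4369.7, 3089 and 3027 in HoxA9 clones (adjusted p = 0.0209 by limma), and Tgfb1, the ligand, had 46124 in MLL-ENL cells and 28561, 28282 and 27820.3 in HoxA9 clones (adjusted p = 0.00406). Smad4, the shared signal transducer, rose 1.48-fold (adjusted p = 0.0152). Smad1, a BMP signal transducer, had 381 in MLL-ENL cells and 4233, 1319 and 1651 in HoxA9 clones (adjusted p = 0.031), and Acvr1, a type I receptor, had 516 in MLL-ENL cells and 1936, 1641 and 1629.6 in HoxA9 clones (adjusted p = 0.0421). Of 25 Wnt and Notch genes, 2 were higher and 3 lower, near the shares of all genes. The counts were 4 higher and 1 lower with a common median, 2 higher and 1 lower without clone 2, and 1 each way without clone 3. Dtx1, a Notch-responsive ubiquitin ligase, fell to 486 in MLL-ENL cells, against 2373, 1711 and 2603 in HoxA9 clones (adjusted p = 0.0054), and Notch2, a receptor, rose 2.14-fold (adjusted p = 0.00202) with its second probe set called lower. Some calls were lost when 1 clone was left out, with an adjusted p of, without HoxA9 clone 1, 0.0861 for Acvr1, and, without HoxA9 clone 2, 0.0531 for Tgfbr2 and 0.0794 for Acvr1, and, without HoxA9 clone 3, 0.075 for Acvr1.

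Of 16 eicosanoid genes and of 18 glycolysis and lactate genes, 1 was higher and 2 lower in each list, near the 5.71% and 8.92% of all genes. Ptger4, a prostaglandin E2 receptor, had 1094 in MLL-ENL cells and 107, 392 and 114 in HoxA9 clones (adjusted p = 0.0332), and Ptges, which makes prostaglandin E2, had 180.0 in MLL-ENL cells and 896, 1475 and 2369 in HoxA9 clones (at least 3.73-fold lower, adjusted p = 0.00908). Slc16a3, a lactate exporter, rose 4.54-fold to 4166 in MLL-ENL cells, against 564, 953 and 1319 in HoxA9 clones (adjusted p = 0.0251), while the glucose transporter Slc2a3 was among the largest falls. No interferon response gene of 23 passed in limma, with 4 at an unadjusted p under 0.05. No mast cell, basophil or eosinophil gene of 16 and no T or NK gene of 13 passed either, with 1 and 3 at an unadjusted p under 0.05. Hpgd, which inactivates prostaglandins, had 118201 in MLL-ENL cells and 26788, 33217 and 13797 in HoxA9 clones and did not pass (adjusted p = 0.302). Leaving out 1 clone ended some of these calls, with an adjusted p of, without HoxA9 clone 1, 0.0643 for Ptger4, and, without HoxA9 clone 2, 0.0501 for Slc16a3, and, without HoxA9 clone 3, 0.0697 for Ptger4. Where 2 or more probe sets of a gene were called, which was so for 444 genes, 100 of those genes (22.5%) had calls in both directions. Of the 932 probe sets with several symbols and the 9160 with none, 5486 were tested. These gave 217 higher and 628 lower and are not named. Over the 25459 kept probe sets with 1 symbol, 5.21% were higher and 9.08% lower.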
